A study of Mus musculus with 6 samples.

Results

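The genes described are the 10 replication-independent histone variant genes of the mouse, H3f3a, H3f3b, H2afx, H2afy, H2afz, H2afv, H2afj, H1f0, H1fx and Cenpa. They were chosen by symbol from the 34199 genes of the count files, by a rule that uses no measured value, and 9 of the 10 (all but H1f0) passed the filter on low counts and were tested among 12460 genes. RNA was sequenced from iGMPs, granulocyte-macrophage progenitors immortalized by HOXA9. This line came from C57Bl/6 Lys-GFP bone marrow, where green fluorescent protein marks expression of the lysozyme gene, and is kept self-renewing by HOXA9 fused to an estradiol-dependent estrogen receptor domain. Each of 3 groups had 2 libraries, harvested at 24 h. CAF-1 OFF cells carried an IPTG-inducible short hairpin RNA against Chaf1b, a subunit gene of the histone chaperone CAF-1, and received 500 µM IPTG with estradiol at 150 ng/ml. Control cells received the same IPTG and estradiol, and the labels did not say which hairpin they carried. HOXA9 OFF cells were washed and kept without estradiol, which inactivates the fusion and starts normal myeloid differentiation, and whether they received IPTG was not stated. All cells shared the HOXA9 fusion and grew with stem cell factor. The study worked with clonal lines, and the labels did not say which clones, or whether separate cultures, gave the 2 libraries of a group. Independent sub-clones are named by the study for RNA-seq at other harvests (before induction and later than 24 h), without a link to the libraries analysed here. The p-values therefore measure the spread between these libraries, which may be technical.

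Most histones are made only while DNA is replicated, from clustered genes without introns, and CAF-1 places new H3 and H4 behind the replication fork. The genes described here lie outside those clusters, and most of their products can enter chromatin at any time in the cell cycle through chaperones of their own. H3f3a and H3f3b encode the same protein, histone H3.3, which HIRA places in active genes and DAXX with ATRX in heterochromatin. CENP-A replaces H3 at centromeres, the H2A variants mark damaged DNA, promoters or silent chromatin, and linker histones of the H1 family bind where DNA enters and leaves the nucleosome.

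Gene counts per library lay between 16773560 and 25170898, so that 3 counts corresponded to 0.118 to 0.182 CPM (counts scaled to a common library size by the trimmed mean of M-values). Replicates differed by more than sampling noise (chi-square per degree of freedom 20.5 to 27.6). Chaf1b, the target of the hairpin, had 342 and 239 counts in CAF-1 OFF, next to 2290 and 1810 in control, with 1339 and 1012 in HOXA9 OFF. Its log2 fold change in CAF-1 OFF was -2.71 ± 0.19 (SE, edgeR FDR 0.0136). It was also called lower in HOXA9 OFF (-0.63 ± 0.17, edgeR FDR 0.0339). Of 5 progenitor markers, 0 were called in CAF-1 OFF by edgeR, DESeq2 or the edgeR exact test (0 with an unadjusted p under 0.05), and 4 fell in HOXA9 OFF, most of all Flt3 (log2 fold change -6.04). The remaining marker was higher there but not called (log2 fold change 0.53, edgeR FDR 0.139). Over all genes 8.84% were called lower in HOXA9 OFF. The labels gave no sequencing batch. The T and natural killer cell genes Cd3e and Ncr1 were at 0 counts in every library.

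In CAF-1 OFF cells, 2 of the 9 tested variant genes rose against control. H3f3b, an H3.3 gene, rose 2.30-fold, and H1fx, a linker histone gene, rose 3.33-fold. The other H3.3 gene, CENP-A and the 5 H2A variant genes were not called. Genes were called where they changed at least 1.5-fold with a false discovery rate (FDR, adjusted over all genes tested by the Benjamini-Hochberg method) under 0.05. By this rule, 0.0722% of all genes were called in the comparison (9 genes), 0.0642% higher and 0.00803% lower. Under the legacy form of the edgeR quasi-likelihood test, the default of the function, 4 genes were called, and of the variants only H3f3b (FDR 0.0221). H3f3b and H1fx were known to be high in CAF-1 OFF when the genes were chosen, so their count is not independent evidence about the family. All 9 fold changes were above 0, with a median log2 fold change of 0.12 against 0 over all genes tested. The small ones rested on CAF-1 OFF replicate 1, which was above replicate 2 in each of the 7 genes that were not called, and without it 5 of the 9 were below 0.

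H3f3b lies on chromosome 11 (115883226 to 115889276, minus strand, NCBIM37, the assembly that mm9 names) and is protein coding, as are all genes given below except H1f0. Its counts were 21489 and 24279 in CAF-1 OFF, next to 13075 and 8757 in control, with 9431 and 7061 in HOXA9 OFF. On the CPM scale these were, in the same order, 1116 and 1229, 514 and 508, and 455 and 428 CPM. Both CAF-1 OFF libraries thus lay far above the other 4, and both HOXA9 OFF libraries lay somewhat below control. The log2 fold change in CAF-1 OFF was 1.20 ± 0.10 (SE, 95% confidence interval 0.96 to 1.44, edgeR FDR 0.0171), and in HOXA9 OFF it was -0.21 ± 0.10 (interval -0.45 to 0.03, edgeR FDR 0.161). Between CAF-1 OFF and HOXA9 OFF it was 1.41 ± 0.10 (edgeR FDR 0.000445). The call against control rested on both control libraries, since without control replicate 1 the edgeR FDR was 0.14 and without control replicate 2 it was 0.233, while the log2 fold change lay between 1.14 and 1.26 whichever library was left out.

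H3f3a (chromosome 1, 182730963 to 182744074, minus strand), which encodes the same protein, had far fewer counts and was not called. It had 310 and 261 counts in CAF-1 OFF, next to 358 and 241 in control, with 282 and 182 in HOXA9 OFF, or 16.1 and 13.2, 14.1 and 14, and 13.6 and 11 CPM. The control values lay within the CAF-1 OFF range. Its log2 fold change was 0.06 ± 0.18 in CAF-1 OFF (interval -0.37 to 0.50, edgeR FDR 0.932), an interval whose upper bound lay below the lower bound for H3f3b. Within each library, the ratio of H3f3b to H3f3a counts does not depend on scaling. It was 69.3 and 93.0 in CAF-1 OFF, next to 36.5 and 36.3 in control, with 33.4 and 38.8 in HOXA9 OFF, so the CAF-1 OFF values stood apart from the other 4.

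Reads that H3f3a shares with copies of the gene are missing from its counts. Reads with more than 1 alignment are not counted by HTSeq. Windows were taken from the longest annotated transcript of each gene, which need not be the main one in these cells. In the mm9 genome 67.5% of the 50-base windows of H3f3a and 74.3% of the 100-base windows had no exact copy outside the gene. For H3f3b the shares were 74.2% and 88.7%, and for H2afz they were lowest, at 16.5% and 22.3%. H2afx had 93.7% and 98.6% and H2afj 97.5% and 100%, whereas every window of Cenpa, H2afy, H2afv, H1f0 and H1fx was without a copy. The copies can lower the level of H2afz, H3f3a and H3f3b against other genes and change the size of the H3f3b to H3f3a ratio in a library, and a comparison of one gene between groups uses the same windows in each. The processed pseudogenes H3f3a-ps1 and H3f3a-ps2 took 0 to 4 and 0 to 2 counts. Reads shared with H3f3a are left out of these counts too, so they do not show how many reads the copies cost. Copies of H3f3a windows lay at 52 loci for 50 bases and at 18 for 100 bases. H3f3a also overlaps Gm17275 (20 to 60 counts) and Gm16067 (5 to 15 counts) on the opposite strand, and the strand setting of the counting was not stated.

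**Figure D1:**
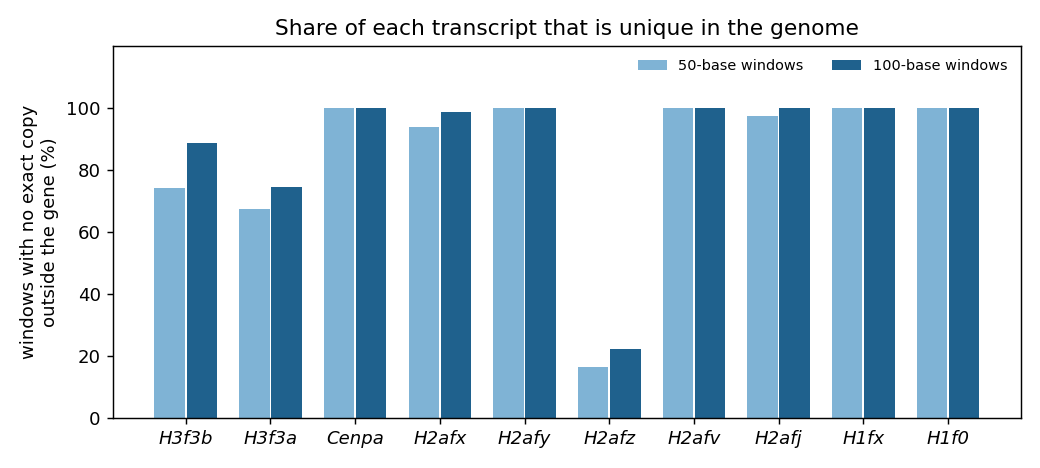
Share of overlapping windows of each gene's longest annotated transcript (bars, % on the y axis, for 50-base and 100-base windows) with no exact copy elsewhere in the mm9 genome, on either strand. H2afz stands lowest at 16.5% and 22.3%, followed by H3f3a at 67.5% and 74.3%.

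The sequences before the starts of H3f3b, H3f3a and H1fx are shown because H3f3b and H1fx were the genes that changed and H3f3a was the paralog that was not called. They are the 250 bases upstream of the RefSeq start on GRCm38.p6, read 5′ to 3′ along the gene, at chr11:116024505-116024754 for H3f3b, chr1:180813606-180813855 for H3f3a and chr6:87981483-87981732 for H1fx, all on the minus strand. Capitals mark letters of a searched motif on either strand. The box bound by the factor NF-Y was searched as CCAAT. The TATA box, which places the polymerase at the start, was searched as TATAAA. The H1 box, known from promoters of linker histone genes, was searched as AAACACA. The cell cycle homology region, known from promoters of genes active in mitosis, was searched as TTTGAA. Sites of E2F, a factor of S phase genes, were searched as TTTGGCGC, TTTCCCGC and TTTCGCGC. In these 3 sequences no match overlapped another.
H3f3b: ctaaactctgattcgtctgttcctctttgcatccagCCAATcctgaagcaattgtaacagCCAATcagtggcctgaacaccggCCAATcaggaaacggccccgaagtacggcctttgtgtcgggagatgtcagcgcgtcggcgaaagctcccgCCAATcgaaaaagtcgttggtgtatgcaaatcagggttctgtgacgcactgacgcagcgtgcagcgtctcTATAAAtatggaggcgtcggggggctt
H3f3a: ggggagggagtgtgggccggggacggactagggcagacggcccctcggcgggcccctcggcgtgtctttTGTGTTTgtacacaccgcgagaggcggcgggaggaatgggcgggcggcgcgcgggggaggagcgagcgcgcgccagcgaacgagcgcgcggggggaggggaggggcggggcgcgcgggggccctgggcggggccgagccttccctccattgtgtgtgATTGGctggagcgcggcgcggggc
H1fx: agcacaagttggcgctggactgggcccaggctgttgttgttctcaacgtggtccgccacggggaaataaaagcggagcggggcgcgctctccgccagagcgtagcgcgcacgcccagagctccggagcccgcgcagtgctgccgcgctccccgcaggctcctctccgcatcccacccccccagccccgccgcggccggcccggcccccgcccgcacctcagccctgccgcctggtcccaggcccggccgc

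The H3f3b sequence held 4 CCAAT letters in the direction of the gene, which begin 214, 190, 167 and 97 bases before the start, and TATAAA 27 bases before it. The H3f3a sequence held 1 CCAAT on the opposite strand at 24 bases and 1 AAACACA on the opposite strand at 181 bases. In H1fx, no motif matched. The 3 also differed in base composition, with 54% G and C in H3f3b, 77.2% in H3f3a and 75.2% in H1fx. Promoters of RefSeq, from 250 bases before to 50 after the start, held CCAAT in 37.4% of 32851 cases (4 or more in 1.06%), TATAAA in 13.6%, AAACACA in 7.18%, TTTGAA in 17.9% and the E2F letters in 1.84%. H2afv also held 4 CCAAT and H2afj and H2afz 3 each, and Cenpa held 2. No motif matched in H2afy and H1f0, and the E2F letters matched in none of the 9 genes with an entry. H2afx had no entry. H3f3b, which rose, and H2afv, which was not called, thus held the same number of CCAAT, and a match describes letters and not a bound site.

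**Figure D2:**
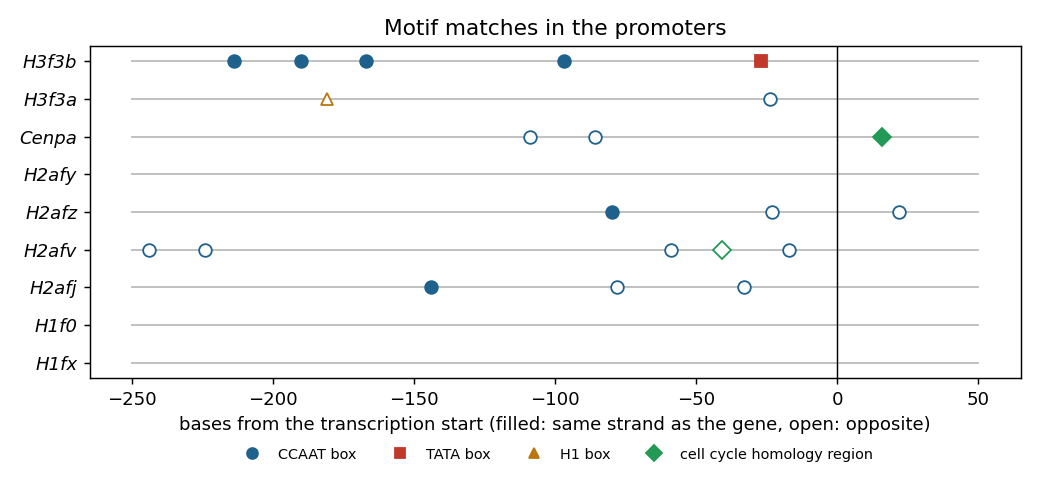
Positions of motif matches in the RefSeq promoters of 9 genes (rows), in bases from the transcription start (x axis), by motif (symbol) and strand (filled, same strand as the gene; open, opposite strand). H3f3b holds 4 CCAAT on its own strand and the only TATAAA, at 27 bases before the start, and H2afy, H1f0 and H1fx hold no match.

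H1fx (chromosome 6, 87930416 to 87931476, minus strand, 1 exon) had the largest fold changes of the variants tested. It had 2697 and 2466 counts in CAF-1 OFF, next to 1028 and 676 in control, with 533 and 298 in HOXA9 OFF. On the CPM scale these were, in the same order, 140 and 125, 40.4 and 39.2, and 25.7 and 18.1 CPM, so the 3 groups did not overlap and HOXA9 OFF was lowest. The log2 fold change was 1.73 ± 0.17 in CAF-1 OFF (edgeR FDR 0.0295) and -0.86 ± 0.17 in HOXA9 OFF (edgeR FDR 0.012). Between CAF-1 OFF and HOXA9 OFF it was 2.59 ± 0.18 (edgeR FDR 0.000402), or 6.02-fold. H1fx thus rose in CAF-1 OFF and fell in HOXA9 OFF, each against the same control libraries.

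The H1fx call in CAF-1 OFF was the less stable one. It was lost under the legacy form of the edgeR quasi-likelihood test (FDR 0.0619), and without CAF-1 OFF replicate 1 (FDR 0.0851), CAF-1 OFF replicate 2 (FDR 0.0515), control replicate 1 (FDR 0.165) or control replicate 2 (FDR 0.256), all by edgeR. DESeq2 gave FDR 4.12e-15 and the edgeR exact test 2.6e-15, against 3.56e-25 and 6.25e-16 for H3f3b. The call in HOXA9 OFF was lost without control replicate 1 (edgeR FDR 0.0542), control replicate 2 (edgeR FDR 0.0524) or HOXA9 OFF replicate 2 (edgeR FDR 0.0502). H1fx overlaps Gm5577 on the opposite strand, which had 5 to 32 counts.

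**Figure D3:**
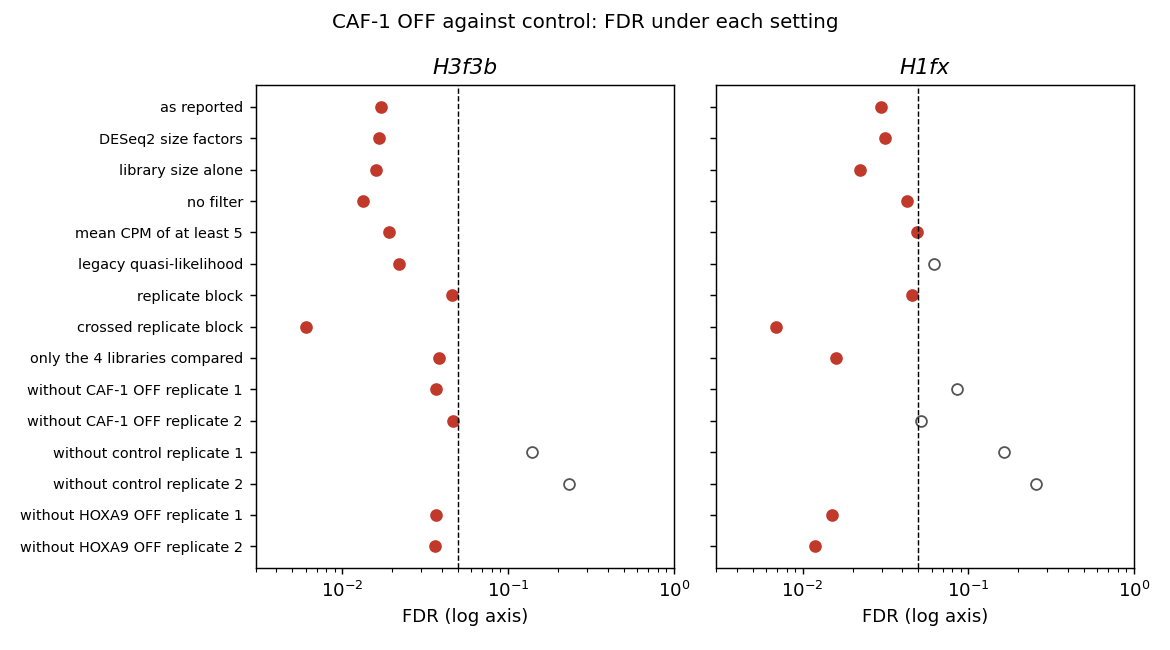
FDR (x axis, log scale) of H3f3b and H1fx in CAF-1 OFF against control under each setting (rows), with called values filled and the dashed line at 0.05. DESeq2 and the exact test, whose FDR values were at most 4.12e-15, are left off. H3f3b lies above 0.05 without control replicate 1 (0.14) or 2 (0.233), and H1fx in 5 of the settings shown.

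H1f0, the linker histone gene that accumulates in cells that stop dividing, had 1 count in CAF-1 OFF replicate 2 and 0 in the other 5 libraries, under the 3 counts taken as the floor, so no fold change is given. The GENCODE annotation of NCBIM37 holds H1f0 only as a pseudogene of 534 exonic bases (chromosome 15, 78859152 to 78859689). The annotation the authors counted on was not stated, so a count near 0 does not show that the gene was silent. For the same reason the ratio of H1fx to H1f0 could not be given.

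The centromeric variant was not called. The study named Cenpa among histone genes higher in the CAF-1 OFF state, in single-cell data that reach later times. Cenpa (chromosome 5, 30969150 to 30977200, plus strand) had 324 and 272 CPM in CAF-1 OFF, next to 275 and 293 in control, with 340 and 297 in HOXA9 OFF. The control values lay within the CAF-1 OFF range and below both HOXA9 OFF values. The log2 fold change was 0.07 ± 0.12 in CAF-1 OFF (interval -0.23 to 0.36, edgeR FDR 0.887) and 0.16 ± 0.12 in HOXA9 OFF (interval -0.13 to 0.46, edgeR FDR 0.361), so a change of 1.5-fold lay outside both intervals.

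Among H2A variants, H2afx and H2afy were called only when CAF-1 OFF was set against HOXA9 OFF. H2afy (chromosome 13, 56174980 to 56237722, minus strand) encodes macroH2A1, a variant with a large extra domain found in silent chromatin. It had 1399 and 1180 CPM in CAF-1 OFF, next to 1188 and 1232 in control, with 827 and 794 in HOXA9 OFF. Both HOXA9 OFF libraries lay below the other 4, and control lay within the CAF-1 OFF range. The log2 fold change in HOXA9 OFF was -0.58 ± 0.12 (edgeR FDR 0.0121), a 1.49-fold decrease that narrowly missed the fold minimum. With library size alone it was -0.66 and passed. Between CAF-1 OFF and HOXA9 OFF it was 0.67 ± 0.12 (edgeR FDR 0.00743), and this call was lost without CAF-1 OFF replicate 1 (log2 fold change 0.54) or HOXA9 OFF replicate 2 (edgeR FDR 0.0505). H2afy overlaps Gm17253 on the opposite strand, which had 7 to 26 counts.

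H2afx (chromosome 9, 44142798 to 44144154, plus strand, 1 exon) encodes H2A.X, which is phosphorylated around DNA breaks. It had 296 and 243 CPM in CAF-1 OFF, next to 233 and 209 in control, with 199 and 140 in HOXA9 OFF. The groups did not overlap, although the HOXA9 OFF libraries differed from each other by more than those of control. Against control the log2 fold change was 0.29 ± 0.18 in CAF-1 OFF (interval -0.15 to 0.72, edgeR FDR 0.623) and -0.38 ± 0.18 in HOXA9 OFF (interval -0.82 to 0.05, edgeR FDR 0.159). Between CAF-1 OFF and HOXA9 OFF it was 0.67 ± 0.18 (edgeR FDR 0.0329), a call lost without the expression filter (edgeR FDR 0.0524), without CAF-1 OFF replicate 1 (0.129) and without HOXA9 OFF replicate 2 (0.139).

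The H2A.Z genes and H2afj were not called in any comparison. H2afz (chromosome 3, 137527451 to 137529886, plus strand) and H2afv (chromosome 11, 6327229 to 6344446, minus strand) encode the H2A.Z proteins, which are exchanged into nucleosomes beside promoters. H2afz had 48.7 and 41.8 CPM in CAF-1 OFF, next to 42.1 and 47.9 in control, with 35.3 and 34.4 in HOXA9 OFF, where it was lowest (log2 fold change -0.37 ± 0.13, interval -0.68 to -0.05, edgeR FDR 0.0805). H2afv had 158 and 129, 126 and 125, and 160 and 108 CPM in the same order. The H2afv values of HOXA9 OFF spanned those of control (log2 fold change 0.10 ± 0.19, edgeR FDR 0.721). The count ratio of H2afz to H2afv was 0.308 and 0.324 in CAF-1 OFF, next to 0.336 and 0.383 in control, with 0.22 and 0.317 in HOXA9 OFF, so both controls had the highest ratios. H2afj (chromosome 6, 136756769 to 136758595, plus strand, 1 exon) encodes H2A.J, a variant known to accumulate in senescent cells. It had 197 and 157, 165 and 161, and 150 and 147 CPM. In CAF-1 OFF the intervals were -0.30 to 0.32 for H2afz, -0.26 to 0.65 for H2afv and -0.18 to 0.42 for H2afj, all on the log2 scale.

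**Figure D4:**
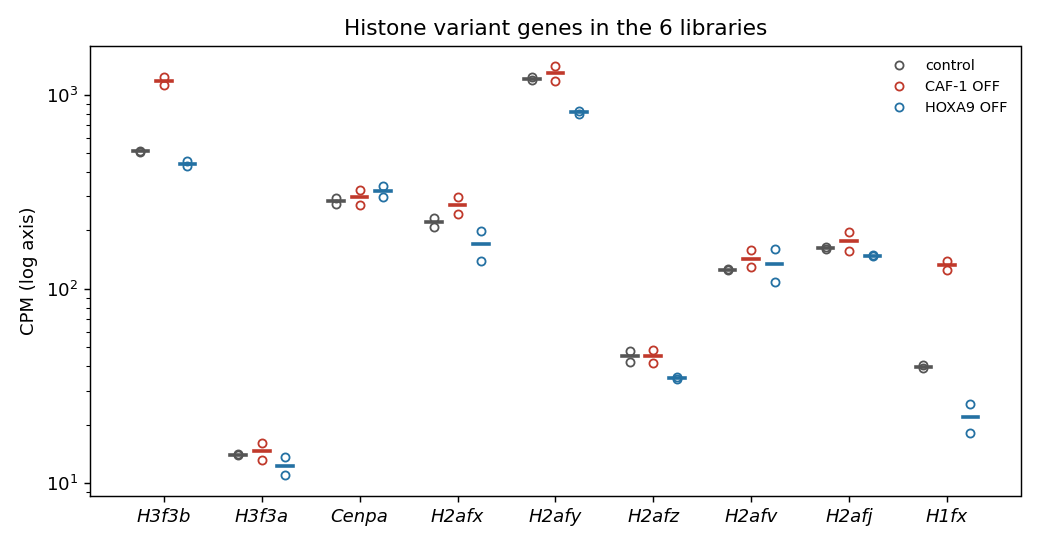
CPM (y axis, log scale) of 9 variant genes in each library (points) of control, CAF-1 OFF and HOXA9 OFF, with bars at the mean of the 2 libraries. H3f3b and H1fx stand apart in CAF-1 OFF (1116 to 1229 and 125 to 140 CPM), and H2afy is lowest in HOXA9 OFF (794 to 827 CPM).

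In HOXA9 OFF against control, 1 of 9 variants was called, H1fx, which fell. Over all genes 22.2% were called, 13.3% higher and 8.84% lower, so a count of 1 in 9 is near the background and is no result about the variants. Of the 9 fold changes 7 were below 0, with a median log2 fold change of -0.21 against 0 over all genes. In CAF-1 OFF against HOXA9 OFF, 4 of 9 were called, all higher in CAF-1 OFF (H3f3b, H1fx, H2afx and H2afy). Over all genes 22.7% were called, 9.7% higher and 13% lower, and the median log2 fold change of the variants was 0.38. The split over all genes depended on scaling. Higher genes were 42.7% of the calls here and 52.1% with library size alone, and in HOXA9 OFF against control they were 60.1% and 51.1%. This comparison shares its CAF-1 OFF and HOXA9 OFF libraries with the others, so its calls are not a further observation of H3f3b and H1fx.

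**Figure D5:**
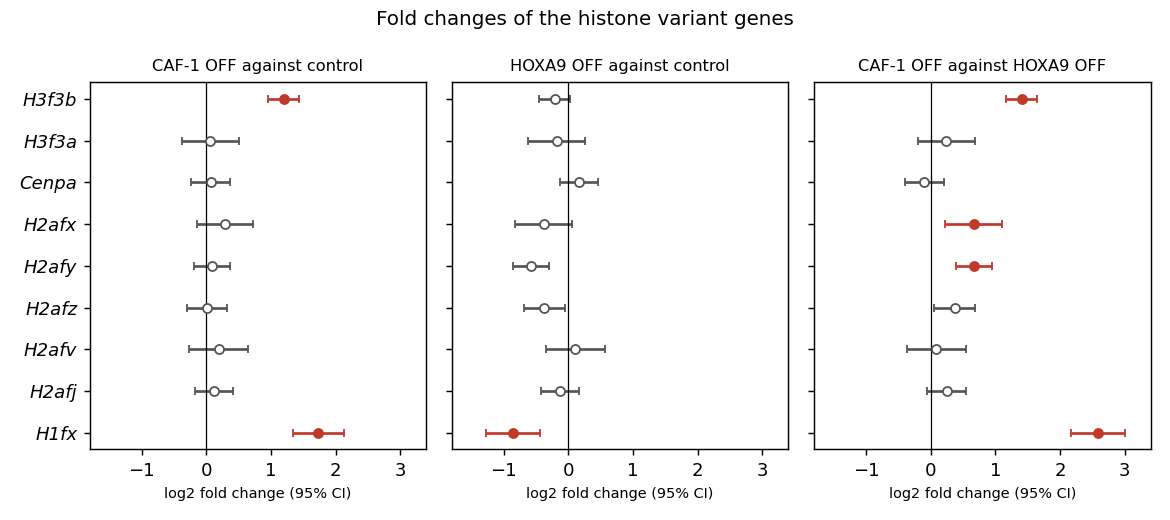
Log2 fold changes (x axis) of the 9 tested variant genes (rows) in the 3 comparisons (panels), with 95% confidence intervals from the edgeR fit and called genes in filled red. H3f3b and H1fx are called in CAF-1 OFF (1.20 and 1.73), H1fx alone in HOXA9 OFF (-0.86), and H2afx and H2afy join them between CAF-1 OFF and HOXA9 OFF (0.67 each).

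The variants together took more of the counts in CAF-1 OFF, mostly through H3f3b (mean 1173 CPM, next to 511 in control). H1fx also added to the sum (133 and 39.8 CPM), and no other variant was called there, so the sum is no result about the family. The summed level of the variants was 3390 to 3695 CPM in CAF-1 OFF, next to 2596 to 2630 in control, with 1977 to 2206 in HOXA9 OFF. H3f3b made up 30.2% and 36.3% of it in CAF-1 OFF, next to 19.8% and 19.3% in control, with 20.6% and 21.6% in HOXA9 OFF. H2afy made up 37.9% and 34.8%, 45.7% and 46.8%, and 37.5% and 40.2%. These bulk values cannot tell fewer or more cells of a type from less or more RNA per cell.

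Levels of different genes were compared per kilobase of exon. In control, H2afy (178 ± 4.61 CPM per kb, SD, n = 2), H3f3b (172 ± 1.25) and H2afx (163 ± 12.2) were highest, and H3f3b and H2afx did not differ beyond their spread. Cenpa followed at 114, H2afj at 89.3, H2afv at 76.5, H1fx at 37.5, H2afz at 25.3 and H3f3a at 4 CPM per kb, and these neighbours did not overlap. In CAF-1 OFF, H3f3b stood first at 394 ± 26.8 CPM per kb, above H2afx at 198 and H2afy at 189, which overlapped. H1fx and Cenpa also overlapped there, at 125 and 119 CPM per kb. In HOXA9 OFF, H3f3b had 148, Cenpa 127, H2afx 125, H2afy 119 and H1fx 20.6 CPM per kb, where H2afx overlapped H3f3b, Cenpa and H2afy, and Cenpa overlapped H2afy. The order depended on the length used, since by longest transcript control H2afy was at 301, Cenpa at 210, H3f3b at 203, H2afz at 42.1 and H3f3a at 4.94 CPM per kb. Levels on this scale were not corrected for windows with copies, so those of H2afz, H3f3a and H3f3b (and, by fewer windows, of H2afx and H2afj) may be too low, and the order of H3f3b below H2afy in control is not settled.

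No chaperone or reader of the variants was called in CAF-1 OFF. Over 7 H3.3 chaperone genes, 4 CENP-A deposition genes, 13 H2A.Z exchange genes and 8 H2A.X kinase and reader genes, 0 of 32 were called by edgeR, DESeq2 or the exact test, and 1 had an unadjusted p under 0.05. Their log2 fold changes ran from -0.34 to 0.16 with a median of -0.04. The background of 0.0722% called over all genes leaves little to read from a count of 0. In HOXA9 OFF, 2 of the 32 were called, both lower, no larger a share than the 8.84% of all genes called lower, so the count is no result about these lists. They were Ruvbl1 and Ruvbl2, which encode the paired ATPases of the H2A.Z exchange complexes. Ruvbl2 had 190 and 185 CPM in HOXA9 OFF against 355 and 383 in control (log2 fold change -0.98 ± 0.09, edgeR FDR 0.000958), and Ruvbl1 had 37.8 and 40.4 against 67.4 and 71.5 (-0.83 ± 0.11, edgeR FDR 0.00284). The direct comparison called the same pair, with CAF-1 OFF above HOXA9 OFF by 0.78 for Ruvbl2 and 0.77 for Ruvbl1 on the log2 scale.

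Of 7 other variant genes, mostly of the germ line, only H2afy2 passed the filter. H2afy2 encodes macroH2A2. It had 73 and 65 counts in HOXA9 OFF, 10 and 4 in control and 7 and 1 in CAF-1 OFF, so both HOXA9 OFF libraries stood above the rest. Its counts outside HOXA9 OFF were low, so it passed the filter through the group where it is high, and its fold change is given as a description (log2 fold change 3.48 ± 0.47 against control). At up to 3.94 CPM its level stayed far under that of H2afy, whose CPM was lower in the same libraries.

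Clustered replication-dependent histone genes, of which 22 of 67 were tested, were not called against control by edgeR, neither in CAF-1 OFF (6 with an unadjusted p under 0.05, 1 called by DESeq2 and 1 by the exact test) nor in HOXA9 OFF (2, 0 and 0). Their summed level was 101 to 103 CPM in CAF-1 OFF, 62.3 to 70.1 in control and 69.5 to 70.2 in HOXA9 OFF. Hist1h1c alone had 31.7 and 36.8, 24 and 20, and 33.2 and 32.4 CPM in the same order. Reads with more than 1 alignment are missing here too, and these genes were not checked for copies. The sums therefore need not give the level of the whole list. Between the treatments 4 of 22 were called, all higher with CAF-1 OFF (9.7% of all genes were called higher and 22.7% in either direction), led by Hist3h2a (log2 fold change 1.78) and Hist1h4i (1.51).

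Few cell cycle genes were called. Of 10 S phase genes, 0 were called in CAF-1 OFF by edgeR, DESeq2 or the exact test (2 with an unadjusted p under 0.05), and 1, Tyms, fell in HOXA9 OFF (log2 fold change -0.61). Between the treatments Cdc6 and Rrm2 were called, higher with CAF-1 OFF by 0.61 and 0.67. Counts of 1 and 2 in 10 are near the shares over all genes (8.84% lower in HOXA9 OFF and 9.7% higher between the treatments) and are no result about the list. The summed level of the list was 4287 to 4379 CPM in CAF-1 OFF, next to 4209 to 4681 in control, with 3452 to 3952 in HOXA9 OFF. Of 10 G2 and mitosis genes, 0 were called by edgeR in any comparison, with 0, 1 and 2 at an unadjusted p under 0.05 and 1 called by DESeq2 and the exact test, in HOXA9 OFF. The part of the cell cycle in the results was not tested.

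Granulocyte markers (S100a8, S100a9, Ltf, Camp and Ngp) summed to 25.6 to 31.5 CPM in CAF-1 OFF, 5.28 to 5.93 in control and 273 to 551 in HOXA9 OFF. In CAF-1 OFF 0 of 5 were called by edgeR (3 with an unadjusted p under 0.05, 2 called by DESeq2 and 2 by the exact test), and in HOXA9 OFF 5 of 5 rose. Both H3f3b and H1fx were at their lowest in HOXA9 OFF, where these markers were highest, although the decrease of H3f3b was not called. Both were at their highest in CAF-1 OFF, where the marker sum also lay above control. Monocyte markers, of which 4 were tested, summed to 28.7 to 29.7, 19.2 to 23.9 and 262 to 368 CPM in the same order, with 0 called in CAF-1 OFF by edgeR, DESeq2 or the exact test (0 with an unadjusted p under 0.05) and 4 in HOXA9 OFF. Megakaryocyte and erythroid markers summed to 30.6 to 59.5, 19.7 to 21.5 and 57.1 to 69.1 CPM, and of 3 tested, 0 were called in CAF-1 OFF by edgeR (2 with an unadjusted p under 0.05, 1 by DESeq2 and 1 by the exact test) and 1, Itga2b, rose in HOXA9 OFF. Values of the list differed in sign, as Klf1 had a log2 fold change of -1.11 in HOXA9 OFF that was not called (edgeR FDR 0.268) and Pf4 was called between the treatments, higher with CAF-1 OFF by 1.40 (edgeR FDR 0.0367). The part of these cells in the results was not tested.

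The pattern of H3f3b over the 6 libraries was compared with that of 9614 genes with a mean of at least 5 CPM, by the root mean square distance between centred log2 CPM values. The nearest were Eepd1 (0.148), Tgfbr3 (0.163), Flt1 (0.203), Gnat2 (0.206) and Hist1h4i (0.22). Tgfbr3 was at 36.5 to 43.1 CPM in CAF-1 OFF, 14.3 to 20.9 in control and 14.4 to 15.2 in HOXA9 OFF. None of the 5 was called by edgeR in CAF-1 OFF (FDR 0.0735 to 0.289), all with log2 fold changes between 0.89 and 1.52. Among the variants, H1fx was closest to H3f3b in shape (Pearson r 0.97 over 6 libraries in 3 groups), followed by H2afx (0.75) and H2afy (0.67), and Cenpa had a value near 0 (-0.17). These values describe 6 libraries that share their groups.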

How the data were processed

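Bulk RNA-seq of 6 mouse iGMP libraries was analysed. Each deposited file held unnormalized counts of reads by gene symbol. Per the labels and the methods of the study, the authors aligned reads to mm9 with STAR and made the counts with HTSeq. The annotation and the strand setting were not given in the sources used here. The 5 tally lines of each file, such as 509065 to 773167 ambiguous reads, were left out.

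Counts were fitted in R 4.3.3 with edgeR 4.0.16 (quasi-likelihood, legacy=FALSE, TMM, filterByExpr, all 6 libraries, 1 mean per group), with FDR over 12460 genes. The function's default, the legacy form, was an alternative, as were DESeq2 1.42.0, other scalings and filters, and leaving out each library. The script was tested on simulated data.

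Members and lists were chosen with earlier results of these data known. Named genes were the members, Chaf1b, the called list genes with the largest fold changes (up to 4 a list and comparison) and the 5 genes most like H3f3b. Some uncalled list genes were named beside them to show limits. Motifs and windows were searched in RefSeq promoters (GRCm38.p6) and in NCBIM37 with GENCODE vM1. Protein sequences were not analysed here. Results for some marker genes are not reported here.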

Additional observations from a re-analysis of the deposited data

Results flagged for a closer look

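In the direct comparison of both treatments, where the control mean cancels but the control libraries still enter the estimate of the spread, 4 variant genes differed between CAF-1 OFF and HOXA9 OFF. The difference of the log2 levels was 2.59 for H1fx, 1.41 for H3f3b, 0.67 for H2afx and 0.67 for H2afy, each higher in CAF-1 OFF by the edgeR quasi-likelihood test. For H1fx the effects against control had opposite signs and both were called. For H2afx and H2afy neither effect against control was called, and only the difference was.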

How the results depend on the processing

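Calls of variant genes in CAF-1 OFF against control numbered 2 and were 1 under the legacy quasi-likelihood test, 0 at 2-fold and FDR under 0.01, and 0 to 2 without 1 library. Over all genes the 9 calls became 192 with DESeq2, 236 with the exact test, 4 under the legacy test, 1 at the stricter cutoffs and 0 to 11 without 1 library. In HOXA9 OFF the 1 call became 2 with library size alone, 2 without a fold minimum, 0 at the stricter cutoffs and 0 to 1 without 1 library. Over all genes the 2762 calls became 1015 at the stricter cutoffs and 1698 to 2898 without 1 library. In CAF-1 OFF against HOXA9 OFF the 4 calls became 2 at the stricter cutoffs and 2 to 4 without 1 library, and the 2827 over all genes became 1000 and 1786 to 2797. Where 1 library was left alone, it was assumed to vary like the other groups. The cause of these shifts was not tested.

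The replicate numbers are shared by the groups, but same-numbered libraries deviated together with r = -0.178, 0.456 and 0.0329, so they were not taken as pairs. With the replicate block the variant calls numbered 2, 1 and 4, and those over all genes 8, 2771 and 2808, with edgeR FDR 0.046 for H3f3b and for H1fx in CAF-1 OFF. Crossed numbers, chosen after the data were seen, gave 95 calls over all genes in CAF-1 OFF.

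Only uncalled fold changes near 0 changed sign, when 1 library was left out. Without 1 library, values in CAF-1 OFF against control ran from -0.09 to 0.22 for H3f3a, -0.07 to 0.20 for Cenpa, -0.04 to 0.23 for H2afy, -0.11 to 0.13 for H2afz and -0.06 to 0.29 for H2afj. They ran from -0.21 to 0.36 for H2afv in HOXA9 OFF, and between the treatments from -0.23 to 0.05 for Cenpa and -0.16 to 0.42 for H2afv. By longest transcript, levels per kb in control were 4.94 for H3f3a, 203 for H3f3b, 210 for Cenpa, 301 for H2afy and 42.1 for H2afz. With 2 libraries a group, wide intervals limit what can be said of uncalled genes.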
